A study of Mus musculus with 10 samples.

Results

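The genes of the cytosolic ribosomal proteins were compared between inflamed and desert gastric tumours of mice. They were taken as the protein-coding rows of the expression table with an Rpl or Rps name, ribosomal S6 kinases left out. This gave 87 of 56748 genes, 52 with names of the large subunit and 35 with names of the small subunit. The 5 inflamed tumours came from Tff1-CreERT2;Apc fl/fl;Trp53 fl/fl mice, in which a Cre recombinase under the promoter of the gastric gene Tff1 deletes floxed Apc and Trp53, and the labels give genetic mutation as their treatment. The 5 desert tumours were orthotopic allografts labelled wild type. The sources used here do not tell whether that genotype is the host's or the graft's, nor what alterations the grafted cells have. Tumour type, tumour model and genotype coincided in all 10 tumours and cannot be told apart. The tissue of both groups was stomach, and the sources used here name no age, strain or sex.

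Each eukaryotic ribosome holds one copy of nearly every ribosomal protein, so these genes are usually expressed together and at high levels. Large-subunit proteins surround the site where peptide bonds form, and small-subunit proteins surround the site where the mRNA is read. Their mRNAs typically begin with a run of pyrimidines, the 5′ terminal oligopyrimidine (TOP) motif, through which their translation follows growth signals. When assembly is disturbed, free Rpl5 and Rpl11 bind Mdm2, which stabilises p53.

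Expression was given as FPKM, reads scaled to gene length and to a library total set by the authors. The libraries held 15474313 to 15975770 reads in genes in inflamed tumours and 14148147 to 16951640 in desert tumours. The summed FPKM of all genes did not overlap between the groups, at 280795 to 356133 FPKM for inflamed tumours, against 236901 to 269525 FPKM for desert tumours, so the direction of small differences depended on the scaling. Trp53 had 7.05, 7.75, 9.06, 8.58 and 10.4 FPKM in inflamed tumours 1 to 5, against 1.95, 1.89, 2.81, 2.69 and 3.47 FPKM in desert tumours 1 to 5. Apc had 5.42, 5.33, 8.29, 6.38 and 6.50 FPKM in inflamed tumours, against 3.00, 3.75, 4.86, 5.57 and 4.62 FPKM in desert tumours. Both targeted genes were thus higher on average in the tumours labelled as floxed, and a value over the whole gene does not show whether the floxed exons were lost. Summed markers of stomach epithelium were at 7245 to 30164 FPKM in inflamed tumours and 12.8 to 38.9 FPKM in desert tumours, where Tff2 was listed at 0 in 2 libraries and Gkn2 in 3. Summed markers of general epithelium were at 2409 to 4044 FPKM in inflamed tumours, against 1348 to 1999 FPKM in desert tumours. Of these 4 markers, 2 were higher in inflamed tumours, Krt8 and Cdh1. Epcam and Krt18 overlapped between the groups and did not pass (limma, adjusted p = 0.124 and 0.168). Summed T-cell markers were at 8.85 to 23.0 FPKM in inflamed tumours, against 0.126 to 0.615 FPKM in desert tumours. For B- and plasma-cell markers the sums were 73.1 to 211 FPKM in inflamed tumours, against 0.162 to 0.358 FPKM in desert tumours. Nearly all of the inflamed sum was Jchain, at 72.2 to 208 FPKM. Cd79a was at 0.857 to 2.96 FPKM in inflamed tumours, against 0.162 to 0.256 FPKM in desert tumours. The B-cell marker Ms4a1 had 0 FPKM in every desert tumour but only 0.0185 to 0.0425 FPKM in inflamed tumours. Its level was too low for testing, so a difference in Ms4a1 was not tested. Of 29 tested markers of 10 cell types, 19 were higher in inflamed tumours, and 2 of the 3 markers of cycling cells were lower. Of all tested genes, 31.0% were higher and 31.2% lower. The part of cell composition in the results below was not tested, and in bulk tissue fewer cells of a type and less RNA per cell cannot be told apart.

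The ribosomal protein genes together took shares of the RNA that overlapped between the tumour types. They took 3.88%, 3.66%, 3.25%, 2.92% and 3.32% of the reads in inflamed tumours 1 to 5, against 2.94%, 3.03%, 2.76%, 3.43% and 3.50% in desert tumours 1 to 5. The groups overlapped, with means of 3.41% ± 0.374 in inflamed and 3.13% ± 0.320 in desert tumours (SD, n = 5 each), a difference of 0.274 percentage points that is smaller than either SD. With 1 tumour left out this difference ran from 0.157 to 0.397, and it was not tested. As a share of the summed FPKM the order of the means was the other way round, 6.24% ± 0.905 in inflamed and 6.88% ± 0.704 in desert tumours (SD, n = 5 each). Reads in large-subunit genes were 1.36 ± 0.028 times those in small-subunit genes in inflamed tumours and 1.30 ± 0.045 times in desert tumours (SD, n = 5 each).

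**Figure D1:**
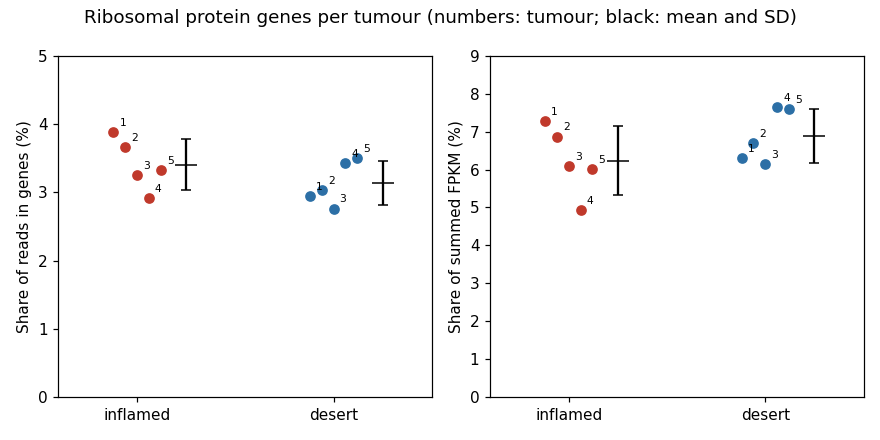
Share of reads in genes (left, %) and of summed FPKM (right, %) in the 87 ribosomal protein genes, with 1 point per tumour and the mean and SD over 5 tumours in black. Inflamed and desert tumours overlapped on both measures, and inflamed tumour 1 (3.88%) and desert tumour 5 (3.50%) had the highest share of reads in their groups.

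Of the 87 genes, 84 had a mean of at least 0.5 FPKM and were tested. The other 3 were Rpl10l, Rpl39l and Rps23rg1. Rpl10l, a testis paralog of Rpl10, was listed at 0 in all 10 libraries. Rpl39l, a testis paralog of Rpl39, had 5 reads over the 10 libraries. Rps23rg1, a retrogene of Rps23, was listed at 0 in 4 inflamed tumours and at 0.0206 FPKM in inflamed tumour 3, against 0.611, 0.722, 0.426, 0.701 and 0.342 FPKM in desert tumours 1 to 5. The groups did not overlap for Rps23rg1, but its mean was below the limit for testing.

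The levels of the tested genes ran from 0.825 to 1125 FPKM on average over the 10 tumours, with a median of 167 FPKM. Averages were at least 100 FPKM for 59 genes and under 20 FPKM for 9. The table's gene lengths for the 87 genes ran from 374 to 6270 bases with a median of 1739, which is longer than a typical ribosomal protein mRNA, so levels between members are those of gene models. Rplp1, a protein of the stalk that recruits elongation factors, had the highest average, with 1438, 1355, 1109, 1237 and 1207 FPKM in inflamed tumours 1 to 5, against 939, 903, 836, 1170 and 1054 FPKM in desert tumours 1 to 5. Rps3a1, of the small subunit, had 844, 873, 805, 850 and 851 FPKM in inflamed tumours, against 707, 798, 662, 851 and 821 FPKM in desert tumours. Rplp0, the base of the same stalk, had 1044, 963, 801, 847 and 899 FPKM in inflamed tumours, against 551, 570, 552, 757 and 724 FPKM in desert tumours. Of these 3 genes, Rplp0 separated the groups without overlap, whereas desert tumour 4 lay among the inflamed values for Rplp1 and desert tumours 4 and 5 among those for Rps3a1.

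Rpl41, which encodes the shortest protein of the ribosome, was the fourth in level, with 588, 549, 428, 549 and 586 FPKM in inflamed tumours, against 751, 715, 666, 847 and 828 FPKM in desert tumours. Rpl8, at the centre of the large subunit, had 529, 473, 457, 455 and 477 FPKM in inflamed tumours, against 643, 570, 490, 604 and 646 FPKM in desert tumours. Rpl4, which lines the tunnel through which the new protein leaves, had 629, 586, 528, 515 and 573 FPKM in inflamed tumours, against 455, 437, 393, 501 and 449 FPKM in desert tumours. Rpl41 was lower in every inflamed tumour and Rpl4 higher in every one, while Rpl8 overlapped through desert tumour 3.

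Letters around the start sites of 6 genes are shown because the TOP motif lies there and because these genes differ in level and in direction. Each window runs from 40 bases before the annotated start to 20 after it, read 5′ to 3′ on the gene's strand from the RefSeq promoter table of build GRCm38.p6. Capitals mark the longest run of C or T letters, or the first where runs of equal length tie. Counted from the annotated start, the marked run begins at -18 in Rps3a1, 12 in Rplp0, -33 in Rpl41, 10 in Rpl3l, -39 in Rpl22 and -2 in Rps18. A marked run away from the start is not shown to be a TOP motif. Rps3a1 lies at chr3:86142649-86142708 on the minus strand, Rplp0 at chr5:115559427-115559486 on the plus strand, Rpl41 at chr10:128549149-128549208 on the minus strand, Rpl3l at chr17:24727786-24727845 on the plus strand, Rpl22 at chr4:152325686-152325745 on the plus strand and Rps18 at chr17:33955646-33955705 on the minus strand.
Rps3a1: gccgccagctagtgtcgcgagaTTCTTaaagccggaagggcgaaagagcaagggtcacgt
Rplp0: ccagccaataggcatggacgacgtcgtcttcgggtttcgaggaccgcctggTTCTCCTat
Rpl41: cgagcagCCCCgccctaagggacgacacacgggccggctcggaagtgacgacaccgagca
Rpl3l: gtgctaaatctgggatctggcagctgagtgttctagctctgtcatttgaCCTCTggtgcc
Rpl22: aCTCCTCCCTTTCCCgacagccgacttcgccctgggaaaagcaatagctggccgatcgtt
Rps18: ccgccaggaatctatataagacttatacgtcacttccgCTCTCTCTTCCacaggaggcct
Of the 87 genes, 67 had an entry in the promoter table. A run of at least 8 C or T letters on the gene's strand within this window was present in 33 of the 67 (49.3%), against 24.0% of all 27025 promoters in the table. It was present in 10 of 23 genes that were higher in inflamed tumours by the test below, in 3 of 9 that were lower and in 18 of 32 that passed in neither direction. The E-box CACGTG, whose letters read the same on both strands, was present in the 300 bases from 250 before to 50 after the start in 5 of 67 (7.46%), against 7.24% of all promoters. A run of letters is a description of the window at the annotated start and does not show where transcription began in these tumours.

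The tumour types differed gene by gene, in both directions. With limma on log2(FPKM + 1) and Benjamini-Hochberg adjustment over 16750 genes, 30 of the 84 genes were higher in inflamed tumours and 14 were lower at an adjusted p under 0.05, where 31.0% of all tested genes were higher and 31.2% lower. Of the members these counts are 35.7% and 16.7%. The remaining 40 passed in neither direction. The groups did not overlap for 23 genes that were higher and 9 that were lower, against 24.4% of all tested genes in each direction. The median log2 difference, inflamed minus desert, was 0.13 over the members and -0.0072 over all tested genes. Names of the large subunit had 17 higher and 7 lower of 50 with a median of 0.13, and names of the small subunit had 13 higher and 7 lower of 34 with a median of 0.17.

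Most differences were small. They were within 0.5 on the log2 scale for 60 of the 84 genes and reached 1 in size for 4, Rps20, Rpl21, Rpl29 and Rpl3l. The balance of directions differed between scalings. With every library rescaled to the same summed FPKM (TPM), 15 genes were higher and 26 lower, where 22.5% of all tested genes were higher and 41.7% lower, with a median of -0.17 over the members and -0.28 over all tested genes. With quantile normalization 18 were higher and 29 lower, where 27.5% of all tested genes were higher and 36.7% lower, with a median of -0.12 over the members and -0.11 over all tested genes. With median-of-ratios scaling 31 were higher and 12 lower (31.8% and 30.3% of all tested genes), and with limma voom on the recovered reads 31 of 85 tested were higher and 15 lower (32.9% and 30.8%). Under all 22 alternatives, scalings and left-out libraries included, 13 of the 30 stayed higher, among them Rpl3, Rpl6, Rpl9, Rpl11, Rpl14, Rpl21, Rpl22, Rps6, Rps18, Rps20, Rps27l and Rpsa. Of the 14, 7 stayed lower under every alternative in which they were tested, among them Rpl41, Rps19 and Rps26 under all 22, and Rpl3l and Rpl29 under 21, since both fell below the filter at a mean of 5 FPKM. The labels do not say that the tumours came from separate animals, so the p-values measure the spread between these samples.

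**Figure D2:**
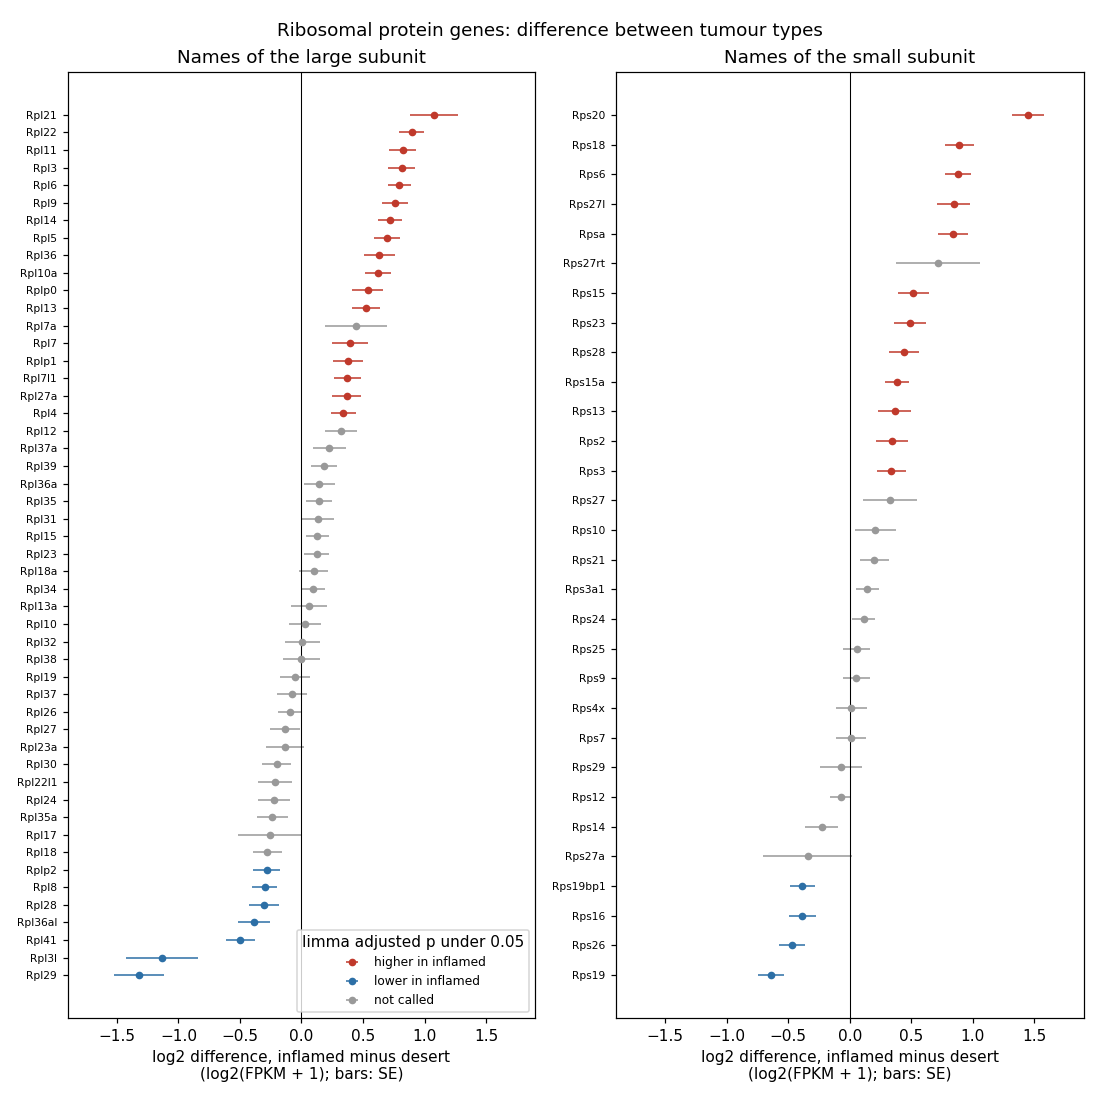
Difference in log2(FPKM + 1), inflamed minus desert, with its SE for 80 of the 84 tested genes, large-subunit names on the left and small-subunit names on the right, ordered by size. Genes higher in inflamed tumours are red (29), lower ones blue (11) and the 40 others grey, and most points lie between -0.5 and 0.5.

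Of the 10 largest rises, 5 were small-subunit genes, where 34 of the 84 tested genes have small-subunit names. Rps20, a protein of the head of the small subunit, had 103, 101, 82.8, 85.7 and 97.9 FPKM in inflamed tumours 1 to 5, against 29.6, 28.7, 32.6, 33.7 and 46.1 FPKM in desert tumours 1 to 5. The lowest inflamed tumour was well above the highest desert tumour, and the difference was 1.45 ± 0.13 on the log2 scale (SE; limma, adjusted p = 3.94e-06). Rps6, the substrate of the S6 kinases in growth signalling, had 546, 526, 461, 421 and 457 FPKM in inflamed tumours, against 248, 255, 229, 297 and 278 FPKM in desert tumours. These groups did not overlap either, with a difference of 0.88 ± 0.11 (SE; limma, adjusted p = 3.74e-05). Rps18, next to the contacts between the subunits, had 255, 243, 208, 195 and 203 FPKM in inflamed tumours, against 123, 126, 94.0, 125 and 127 FPKM in desert tumours. All desert tumours were below all inflamed ones, with a difference of 0.89 ± 0.12 (SE; limma, adjusted p = 6.29e-05).

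Rpsa, also known as the laminin receptor for a role outside the ribosome, had 389, 347, 284, 326 and 354 FPKM in inflamed tumours, against 180, 188, 155, 222 and 206 FPKM in desert tumours. The groups were apart, with a difference of 0.84 ± 0.12 (SE; limma, adjusted p = 0.000125). Rps27l, a paralog of Rps27 and a known p53 target, had 60.4, 68.4, 61.1, 77.3 and 86.8 FPKM in inflamed tumours, against 43.0, 44.9, 34.3, 32.0 and 40.5 FPKM in desert tumours. Inflamed tumours 4 and 5 were the highest, no value overlapped, and the difference was 0.84 ± 0.13 (SE; limma, adjusted p = 0.000214).

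Among large-subunit genes, Rpl22 had 88.1, 84.2, 70.8, 76.6 and 82.6 FPKM in inflamed tumours 1 to 5, against 40.7, 45.1, 36.5, 49.7 and 42.4 FPKM in desert tumours 1 to 5. Rpl22 is not needed for general protein synthesis in mice and is often mutated in human gastric cancers with microsatellite instability. It was higher in every inflamed tumour, with a difference of 0.90 ± 0.10 (SE; limma, adjusted p = 1.89e-05). Rpl11, one of the proteins that bind Mdm2, had 194, 174, 151, 154 and 172 FPKM in inflamed tumours, against 94.7, 87.4, 79.3, 107 and 108 FPKM in desert tumours. Its partner in the 5S RNA particle, Rpl5, chosen after its values were seen, had 178, 167, 158, 136 and 167 FPKM in inflamed tumours, against 95.3, 95.9, 84.5, 114 and 107 FPKM in desert tumours. Neither gene overlapped between the groups, and the differences were 0.82 ± 0.11 for Rpl11 and 0.70 ± 0.11 for Rpl5 (SE; limma, adjusted p = 8.81e-05 and 0.000198). With chromosome medians removed Rpl5 did not pass (0.23, adjusted p = 0.0671).

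Rpl6 had 241, 244, 212, 194 and 220 FPKM in inflamed tumours, against 132, 123, 113, 136 and 132 FPKM in desert tumours. The difference was 0.80 ± 0.09 (SE; limma, adjusted p = 2.96e-05) without overlap. Rpl21, a protein next to the 5S RNA, had 33.2, 15.7, 21.4, 26.8 and 19.5 FPKM in inflamed tumours, against 8.24, 10.02, 14.6, 9.39 and 9.50 FPKM in desert tumours. Inflamed tumour 2 was close to desert tumour 3, and the difference was 1.08 ± 0.20 (SE; limma, adjusted p = 0.000643). The Rpl21 row held 53.2% of the reads on itself and on the rows named as its pseudogenes, and with those reads added the difference was 0.99 ± 0.10.

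Rpl3, which reaches towards the peptidyl transferase centre, had 234, 226, 196, 228 and 272 FPKM in inflamed tumours, against 120, 125, 116, 148 and 146 FPKM in desert tumours. The difference was 0.81 ± 0.11 (SE; limma, adjusted p = 8.76e-05). A row named Rpl3-ps1, a pseudogene whose reads could be those of Rpl3, went the other way. It had 266, 250, 234, 75.6 and 85.6 reads per 1000000 reads in genes in inflamed tumours 1 to 5, against 302, 335, 291, 370 and 358 in desert tumours 1 to 5. Rpl3 and Rpl3-ps1 together had 962 ± 114 such reads in inflamed tumours, against 797 ± 94.3 in desert tumours (SD, n = 5 each). With pseudogene rows added, the difference of Rpl3 was 0.34 ± 0.10 (SE; limma, adjusted p = 0.0139), the same direction at less than 0.5.

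The falls were led by 2 genes of low level. Rpl29, a small basic protein also described as binding heparin, had 0.958, 1.897, 0.813, 1.11 and 1.09 FPKM in inflamed tumours, against 2.55, 6.06, 6.01, 3.69 and 4.35 FPKM in desert tumours. All inflamed values were below all desert values, and the difference was -1.32 ± 0.20 (SE; limma, adjusted p = 0.000192). The Rpl29 row held 16 to 116 reads per library. Whether reads of Rpl29 fell on rows under other names was not tested. Rpl3l, the paralog of Rpl3 found in striated muscle, was listed at 0 in inflamed tumour 1 and had 0.0361, 0.0348, 0.0800 and 0.186 FPKM in inflamed tumours 2 to 5, against 0.357, 1.899, 3.48, 1.696 and 0.481 FPKM in desert tumours 1 to 5. The groups did not overlap, desert tumour 3 was the highest, and the difference was -1.14 ± 0.29 (SE; limma, adjusted p = 0.00567).

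Of the next 8 falls in size, 6 were small-subunit genes, where 34 of the 84 tested genes have small-subunit names. Rps19, the gene most often mutated in human Diamond-Blackfan anaemia, had 72.8, 64.4, 56.8, 61.4 and 61.6 FPKM in inflamed tumours 1 to 5, against 105, 93.4, 85.1, 97.4 and 118 FPKM in desert tumours 1 to 5. Every inflamed tumour was below every desert tumour, with a difference of -0.64 ± 0.11 (SE; limma, adjusted p = 0.000316).

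Rpl41 differed by -0.50 ± 0.12 (SE; limma, adjusted p = 0.00336), with the values in each tumour given above. Rps26, another gene of Diamond-Blackfan anaemia and a protein at the mRNA exit, had 265, 276, 217, 245 and 261 FPKM in inflamed tumours, against 367, 353, 297, 345 and 390 FPKM in desert tumours. The groups did not overlap, and the difference was -0.47 ± 0.10 (SE; limma, adjusted p = 0.00215). Rps16 had 353, 326, 290, 301 and 307 FPKM in inflamed tumours, against 461, 393, 348, 393 and 479 FPKM in desert tumours, where inflamed tumour 1 lay above desert tumour 3. It differed by -0.39 ± 0.11 (SE; limma, adjusted p = 0.00962) and did not pass with chromosome medians removed (adjusted p = 0.191). Rpl36al had 1.22, 2.15, 1.18, 1.36 and 1.72 FPKM in inflamed tumours, against 2.41, 2.04, 1.84, 2.33 and 2.81 FPKM in desert tumours. Inflamed tumour 2 was above desert tumours 2 and 3, the difference was -0.39 ± 0.13 (SE; limma, adjusted p = 0.0242), and the call was lost without inflamed tumour 1 (adjusted p = 0.0575), inflamed tumour 3 (0.0591) or desert tumour 5 (0.0592).

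**Figure D3:**
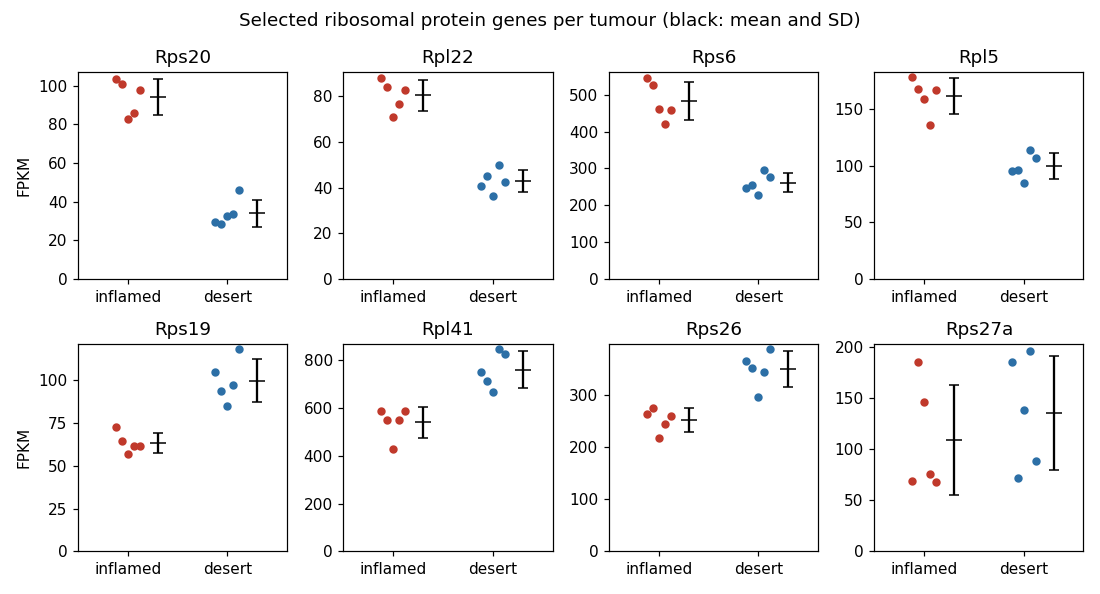
FPKM per tumour of 8 ribosomal protein genes, with 1 point per tumour and the mean and SD over 5 tumours in black. Rps20, Rpl22, Rps6 and Rpl5 were higher and Rps19, Rpl41 and Rps26 lower in all inflamed tumours, while Rps27a ranged from 67.9 to 185 FPKM in inflamed tumours and from 71.9 to 196 FPKM in desert tumours.

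The genes of highest level did not move together. On the log2 scale Rplp0 was higher by 0.54 ± 0.13, Rplp1 by 0.38 ± 0.12 and Rpl4 by 0.34 ± 0.10 in inflamed tumours (SE; limma, adjusted p = 0.00356, 0.0177 and 0.0105), and Rps3a1 differed by 0.14 ± 0.10 (adjusted p = 0.216). All 4 had a negative difference under quantile normalization, of -0.10 for Rplp0, -0.43 for Rplp1, -0.15 for Rpl4 and -0.54 for Rps3a1. Rplp0, Rplp1 and Rpl4 also did not pass under TPM (adjusted p = 0.19, 0.648 and 0.787). Rpl8 was lower by -0.30 ± 0.10 (SE; limma, adjusted p = 0.0248). That call was lost without inflamed tumours 2 or 3 or desert tumours 1 or 5, with adjusted p of 0.0504, 0.0514, 0.0505 and 0.0578 in that order. The third stalk protein, Rplp2, had 123, 103, 96.1, 107 and 105 FPKM in inflamed tumours, against 137, 113, 113, 134 and 156 FPKM in desert tumours. Its difference was thus of the other sign than those of Rplp0 and Rplp1, at -0.28 ± 0.11 (SE; limma, adjusted p = 0.0447), and the call was lost without any 1 of inflamed tumours 2 to 5 or desert tumours 1, 4 or 5 (adjusted p of 0.0667 to 0.103).

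Among the 30 genes that were higher, 26 passed in every fit with 1 tumour left out, the others being Rps2, Rps3, Rps13 and Rpl7. Among the 14 that were lower, 10 did, the others being Rpl8, Rpl28, Rplp2 and Rpl36al. Each of these 8 genes differed by less than 0.4 in size.

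The direction of the differences varied with the chromosome on which a gene lies. All 5 members on chromosome 4 (Rps20, Rpl22, Rps6 and Rpl11 among them) and all 5 on chromosome 5 (Rpl21, Rpl6, Rpl9, Rpl5 and Rplp0) were higher in inflamed tumours, without overlap between the groups. Their median differences were 0.88 on chromosome 4 and 0.76 on chromosome 5. The other tested genes of these chromosomes were shifted the same way, with medians of 0.24 and 0.35. On chromosome 9, 5 of 8 members were higher and 1 lower, with a median of 0.55 over the members and 0.21 over the other genes. On chromosome 17, 6 of 8 were higher and 1 lower, with medians of 0.41 and 0.31. The single fall on each of the last pair was Rpl29 on chromosome 9 and Rpl3l on chromosome 17. Of all tested genes, 31.0% were higher and 31.2% lower, and the share of other genes called was not computed for any chromosome. With chromosome medians removed, Rps18 alone of the chromosome 17 members called higher kept that call.

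Chromosome 7 carried 14 members, more than any other, with 4 higher and 7 lower. Their median was -0.28, beside -0.31 for the other 1275 genes tested there. Directions varied along the chromosome, described here in stretches that were not fixed beforehand. Of the 9 members that lie before Rps3 in the table's positions, 6 were lower (Rpl28, Rps19 and Rps16 among them) and none was higher. The next 4, Rps3 at 99.1 Mb, Rpl27a at 109.1 Mb, Rps13 at 115.9 Mb and Rps15a at 117.7 Mb, were all higher, by 0.34 to 0.38. None of these 4 passed as higher under TPM and only Rps15a did under quantile normalization, while all 4 did with chromosome medians removed. Rplp2 at 141.0 Mb was lower. On chromosome 11 none of 7 members passed, with a median of -0.09 over the members and -0.23 over the other genes. On chromosome 15, 2 of 5 were lower and Rpl3 was higher, with medians of -0.20 and -0.35.

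**Figure D4:**
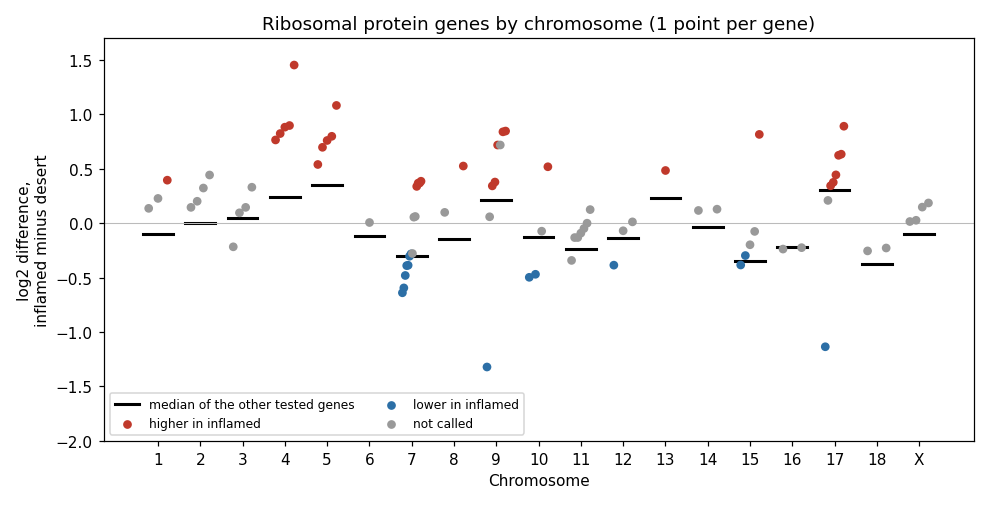
Difference in log2(FPKM + 1), inflamed minus desert, of the 84 tested ribosomal protein genes by chromosome, with 1 point per gene and a black bar at the median of the other tested genes of that chromosome. Red points are higher and blue points lower in inflamed tumours, and the points on chromosomes 4 and 5 are all red and lie above bars at 0.24 and 0.35.

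Over the 84 genes the difference correlated with the median of the other genes on the same chromosome at r = 0.55 (Spearman's rho = 0.63), and at r = 0.72 without Rps20, Rpl21, Rpl29 and Rpl3l. Over the 13 chromosomes with at least 3 members, the members' median correlated with that of the other genes at r = 0.90 (rho = 0.91). With the 50 nearest other tested genes in place of the chromosome, a choice made after the data had been seen, r was 0.66 (rho = 0.74) over the members and 0.29 (rho = 0.34) over all 16511 genes with such neighbours. The sign of the difference was that of the neighbours' median for 69.0% of members and 64.3% of all genes. These are descriptions across genes of the same 10 libraries, members on a chromosome share neighbours, and highly expressed genes have less counting error than most. Members lay above their neighbours' median in 68 of 84 cases, and the median excess over all 84 was 0.23. The share of all genes that lay above their neighbours was not computed. The comparison with neighbours was made on the deposited scaling only, and the members' own median was negative under TPM and quantile normalization. With the median of each chromosome removed in each library, 24 members were higher and 9 lower (28.0% and 33.0% of all tested genes), and of these 20 and 8 were among the 30 and 14.

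The log2 ratio of paralog to parent gene differed between the groups in 3 of 6 tested pairs. Such a ratio also moves when only the parent gene differs. The log2 ratio of Rpl3l to Rpl3, on FPKM + 1, was -7.87, -7.77, -7.58, -7.73 and -7.85 in inflamed tumours, against -6.48, -5.45, -4.70, -5.78 and -6.64 in desert tumours. The groups were apart by -1.95, and by -3.85 to -1.47 over all settings in which this ratio was computed. With Rpl3l so low in inflamed tumours, this size depends on the value added to FPKM. Rpl22l1, a paralog whose level Rpl22 is known to hold down in mice, had 14.1, 15.4, 13.2, 20.8 and 20.1 FPKM in inflamed tumours, against 19.3, 17.5, 16.8, 23.5 and 20.01 FPKM in desert tumours. On its own it overlapped and did not pass (difference -0.22 ± 0.14 SE; limma, adjusted p = 0.195), although under TPM it was lower by -0.52 (adjusted p = 0.0025). Its log2 ratio to Rpl22 was -2.56, -2.38, -2.34, -1.83 and -1.99 in inflamed tumours, against -1.04, -1.31, -1.07, -1.05 and -1.05 in desert tumours, apart by -1.11. The ratio of Rpl36al to Rpl36a was -4.93 ± 0.181 in inflamed and -4.40 ± 0.186 in desert tumours (SD, n = 5 each), apart by -0.53. The Rpl36al row held 28 to 72 reads per library. In these 3 pairs all 5 inflamed tumours were lower than all desert tumours, with p = 0.00794 in an exact two-sided permutation test, the smallest it can give, and 0.0159 after Benjamini-Hochberg adjustment over the 6 pairs. Of all tested genes, taken singly, 24.4% were lower in inflamed tumours without overlap.

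The other 3 pairs did not pass. Rps27l to Rps27 had a log2 ratio of -0.78 ± 0.534 in inflamed and -1.30 ± 0.483 in desert tumours (SD, n = 5 each; exact permutation p = 0.127, adjusted 0.19). Rpl7l1 to Rpl7 had -3.62 ± 0.192 and -3.60 ± 0.2996 (SD, n = 5 each; exact permutation p = 0.897, adjusted 0.897) in inflamed and desert tumours in that order. Rpl7l1, which by name belongs to the set but whose protein is an assembly factor, had 23.1, 26.5, 25.4, 24.5 and 28.3 FPKM in inflamed tumours, against 22.2, 21.7, 17.5, 21.3 and 15.6 FPKM in desert tumours, higher by 0.37 ± 0.11 without overlap (SE; limma, adjusted p = 0.0105), but by 0.09 under TPM (adjusted p = 0.553). Rpl7 was higher by 0.39 ± 0.14 (SE; limma, adjusted p = 0.0343), a call lost in 7 of the fits that left out 1 tumour. Under TPM Rpl7 did not pass (0.09, adjusted p = 0.644). Rpl36a differed by 0.15 ± 0.13 (SE; limma, adjusted p = 0.348).

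**Figure D5:**
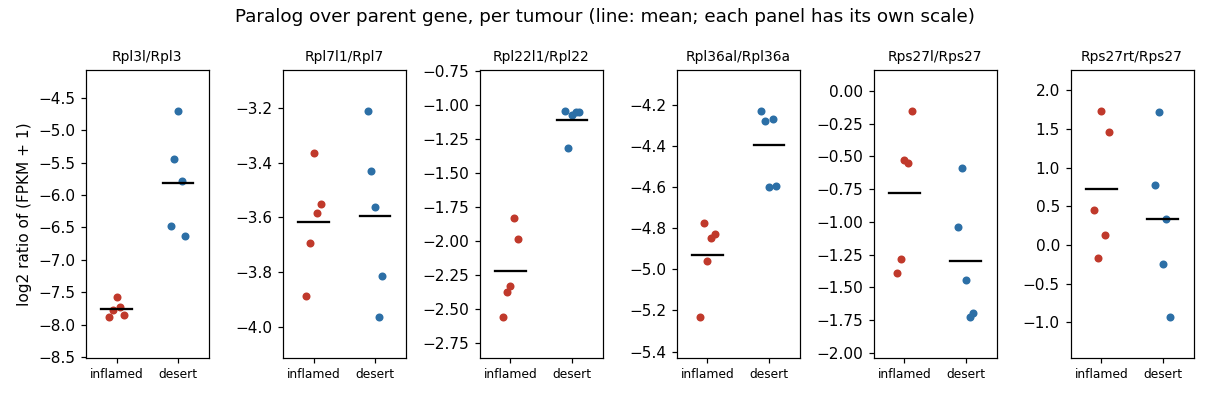
Log2 ratio of paralog to parent gene, on FPKM + 1, per tumour for 6 pairs, with a line at the mean of 5 tumours and a scale of its own in each panel. All inflamed tumours lie below all desert tumours for Rpl3l to Rpl3, Rpl22l1 to Rpl22 and Rpl36al to Rpl36a, and the other 3 pairs overlap.

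Rps27 and its retrogene Rps27rt varied against each other between tumours. Rps27 had 160, 168, 88.7, 114 and 96.6 FPKM in inflamed tumours, against 89.4, 67.9, 95.0, 108 and 133 FPKM in desert tumours. Rps27rt had 219, 150, 297, 125 and 267 FPKM in inflamed tumours, against 154, 226, 80.2, 136 and 69.8 FPKM in desert tumours. Inflamed tumours 3 and 5 were high for Rps27rt where they were low for Rps27, and desert tumour 2 likewise. As reads per 1000000 reads in genes, the coefficient of variation of their sum was 19.2% in inflamed and 10.4% in desert tumours, beside 31.5% and 25.002% for Rps27 and 37.4% and 48.3% for Rps27rt. The share of reads of each that could come from the other was not tested, and neither gene passed (limma, adjusted p = 0.216 for Rps27 and 0.0913 for Rps27rt). Rps27rt passed as higher when inflamed tumour 4 (adjusted p = 0.046) or desert tumour 2 (0.028) was left out.

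Near-identical copies bear on other members too. The table held 322 rows named as ribosomal protein pseudogenes, with 0.199% of the reads in inflamed and 0.192% in desert tumours. For 68 of the 87 members, the own row held at least 90% of the reads on it and its pseudogene rows together. Copies under other names were not counted, so a high share does not show that a row is complete. Rps10 had 8.24% on its own row, with 2.73, 2.93, 2.77, 3.72 and 3.25 FPKM in inflamed tumours, against 3.36, 2.75, 1.67, 3.57 and 1.71 FPKM in desert tumours. Alone it overlapped and did not pass (difference 0.21 ± 0.17 SE; limma, adjusted p = 0.303). With its pseudogene rows it was higher by 0.58 ± 0.10 (SE; limma, adjusted p = 0.000452). The level of Rps10 is therefore uncertain, and so is that of Rpl17, with 36.8% of such reads on its own row. Low averages also occurred with 97.7% to 100% of such reads on the own row. These were 1.57 FPKM for Rpl24, 1.91 for Rpl36al, 2.85 for Rpl29 and 12.2 for Rpl13a. Whether their reads fell on rows under other names was not tested. Rps27a, a fusion of ubiquitin with a small-subunit protein, had 68.8, 185, 147, 75.6 and 67.9 FPKM in inflamed tumours, against 186, 71.9, 138, 196 and 88.2 FPKM in desert tumours. High and low tumours occurred in both groups, and it did not pass (limma, adjusted p = 0.432).

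Within a tumour type most members varied little. Their coefficient of variation had a median of 10.2% over the 5 inflamed and 14.2% over the 5 desert tumours. It exceeded 30% for 4 genes in inflamed tumours (Rpl29, Rpl3l, Rps27a and Rps27rt) and for 7 in desert tumours (the same 4 with Rpl7a, Rpl17 and Rps10). In FPKM, members moved together between tumours of one type. Of the 84, 72, 66, 6, 20 and 45 were above their group's mean in inflamed tumours 1 to 5, and 48, 21, 6, 61 and 67 in desert tumours 1 to 5. In FPKM, inflamed tumour 3 and desert tumour 3 were thus low for nearly the whole set. As a share of reads, however, inflamed tumour 4 was the lowest inflamed tumour, at 2.92% beside 3.25% in inflamed tumour 3. Desert tumour 3 was the lowest desert tumour on that measure too, at 2.76%. The part of library scaling in this joint movement was not tested.

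The genes on the X chromosome, Rpl10, Rpl36a, Rpl39 and Rps4x, were close between the groups. Rps4x had 522, 510, 456, 399 and 450 FPKM in inflamed tumours, against 494, 417, 435, 405 and 573 FPKM in desert tumours. Rpl10 had 318, 343, 293, 304 and 314 FPKM in inflamed tumours, against 373, 275, 301, 242 and 374 FPKM in desert tumours. Both overlapped, with differences of 0.01 ± 0.12 for Rps4x and 0.03 ± 0.13 for Rpl10 (SE; limma, adjusted p = 0.929 and 0.878). Under quantile normalization both were lower, by -0.51 for Rps4x and -0.34 for Rpl10. Rps19bp1, a partner of Rps19 and no part of the ribosome, had 16.3, 17.5, 16.7, 14.3 and 17.3 FPKM in inflamed tumours, against 26.8, 22.2, 19.0, 20.4 and 20.6 FPKM in desert tumours. It was lower without overlap by -0.39 ± 0.10 (SE; limma, adjusted p = 0.00567), but not with chromosome medians removed (-0.03, adjusted p = 0.759).

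Some ribosomal proteins carry other names. Fau, a fusion with Rps30, had 422, 362, 324, 365 and 352 FPKM in inflamed tumours, against 287, 257, 251.1, 316 and 278 FPKM in desert tumours, and was higher by 0.39 ± 0.10 without overlap (SE; limma, adjusted p = 0.00584). It did not pass under TPM or quantile normalization (adjusted p = 0.507 and 0.751). Rack1, a scaffold on the small subunit, averaged 187 ± 22.3 FPKM in inflamed tumours, against 183 ± 21.0 FPKM in desert tumours (SD over 5 tumours each) and did not pass (limma, adjusted p = 0.809).

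Among the genes that make ribosomes, more were lower than higher in inflamed tumours. Of 40 ribosome assembly factors, 5 were higher and 20 lower (limma, adjusted p under 0.05), or 12.5% and 50% beside 31.0% and 31.2% of all tested genes, with a median log2 difference of -0.25. Fbl, the methyltransferase of box C/D particles, averaged 17.0 ± 1.97 FPKM in inflamed tumours, against 33.7 ± 6.27 FPKM in desert tumours (SD over 5 tumours each), a fall of 0.94 on the log2 scale. Npm1, a nucleolar chaperone, averaged 111 ± 14.1 FPKM in inflamed tumours, against 169 ± 23.1 FPKM in desert tumours (SD over 5 tumours each), a fall of 0.61. Sbds, which frees the large subunit for joining, went up, with 32.8 ± 2.68 FPKM in inflamed tumours, against 16.9 ± 0.599 FPKM in desert tumours (SD over 5 tumours each). Of 18 genes of RNA polymerase I, which transcribes the ribosomal RNA, 4 were higher and 10 lower (22.2% and 55.6%) with a median of -0.31. Its largest subunit Polr1a averaged 4.84 ± 0.715 FPKM in inflamed tumours, against 14.4 ± 3.38 FPKM in desert tumours (SD over 5 tumours each), while its subunit Polr1d averaged 20.9 ± 3.88 FPKM in inflamed tumours, against 9.50 ± 0.840 FPKM in desert tumours (SD over 5 tumours each), both past the threshold. The difference between these lists and the ribosomal protein genes was not tested.

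Translation factors were mixed. Of 12 elongation and termination factors, 5 were higher and 4 lower (41.7% and 33.3%), with a median of 0.19 that was -0.11 under TPM and -0.24 under quantile normalization. Of 33 initiation factors 6 were higher and 14 lower (18.2% and 42.4%), with a median of -0.15. Eef1a1, which brings aminoacyl-tRNA to the ribosome, averaged 2509 ± 342 FPKM in inflamed tumours, against 1434 ± 117 FPKM in desert tumours (SD over 5 tumours each), a rise of 0.80 on the log2 scale (limma, adjusted p = 0.00016) that was 0.13 under quantile normalization (adjusted p = 0.736). Pabpc1, the poly(A)-binding protein and like Eef1a1 a TOP mRNA, went the other way, with 161, 156, 135, 136 and 173 FPKM in inflamed tumours, against 672, 535, 443, 484 and 403 FPKM in desert tumours. Every inflamed tumour was below every desert tumour for Pabpc1, a fall of 1.71 on the log2 scale. Of 77 mitochondrial ribosomal proteins, 25 were higher and 14 lower (32.5% and 18.2%, beside 31.0% and 31.2% of all tested genes) with a median of 0.04. Under TPM 6 were higher and 34 lower (7.79% and 44.2%, beside 22.5% and 41.7% of all tested genes) with a median of -0.26. Mrps11, for example, averaged 6.30 ± 0.247 FPKM in inflamed tumours, against 12.9 ± 2.01 FPKM in desert tumours (SD over 5 tumours each), a fall of 0.92.

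Of 16 regulators of ribosome production, 6 were higher and 7 lower, where 31.0% of all tested genes were higher and 31.2% lower. The median of these regulators was 0.04, and -0.24 under TPM. Myc, a transcription factor that drives ribosome production, averaged 23.3 ± 3.18 FPKM in inflamed tumours, against 13.3 ± 3.47 FPKM in desert tumours (SD over 5 tumours each), a rise of 0.78 on the log2 scale (limma, adjusted p = 0.00168). Its relative Mycn averaged 1.88 ± 0.686 FPKM in inflamed tumours, against 12.4 ± 3.58 FPKM in desert tumours (SD over 5 tumours each), a fall of 2.21. Of 11 genes of the p53 circuit, 4 were higher and 5 lower with a median of -0.09, beside the same 31.0% and 31.2% of all tested genes. Cdkn1a averaged 29.6 ± 14.8 FPKM in inflamed tumours, against 5.12 ± 3.23 FPKM in desert tumours (SD over 5 tumours each), and Cdkn2a, whose Arf product binds Mdm2, averaged 5.91 ± 4.23 FPKM in inflamed tumours, against 46.5 ± 4.88 FPKM in desert tumours (SD over 5 tumours each), both without overlap. Of 11 host genes of small nucleolar RNAs, 3 were higher and 3 lower, again beside 31.0% and 31.2% of all tested genes. Their median was 0.02, and -0.27 under TPM. The TOP-class host Gas5 averaged 27.4 ± 3.34 FPKM in inflamed tumours, against 29.9 ± 11.2 FPKM in desert tumours (SD over 5 tumours each) without passing (limma, adjusted p = 0.778).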

How the data were processed

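Total RNA of 10 tumours was sequenced, extracted with TRIzol per the labels' protocols. The authors deposited FPKM per gene in 1 table. The submitters' processing notes name the build mm10. For the aligner, counter, annotation and strand, the entry is: not given in the sources used here. Only 2 of the 87 members started within 1 kb of their GRCm38.p6 start in RefSeq, so positions are those of the table, with no build named. FPKM multiplied by gene length gave whole multiples of 1 step in each library (100% within 0.01), from which reads in genes were recovered. The library total implied by that step was 0.980 to 1.118 times the reads in genes in inflamed tumours, and 1.043 to 1.146 times in desert tumours. How that total was set is not described here. The labels' protocol text counts fewer tumours than the 10 in the series, and all 10 were used.

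The test covered the 16750 genes whose mean FPKM was 0.5 or more. It used limma 3.58.1 in R 4.3.3 on log2(FPKM + 1), which compresses differences of genes at low level (trend and robust moderation, group as the only term, two-sided, Benjamini-Hochberg, threshold 0.05). The procedure was tested on simulated data. Paralog ratios were compared with exact permutation tests (scipy 1.17.1). The 9 related lists held 225 genes, 224 of them in the table. The members and lists were chosen with earlier results of these data known. Members named with every value were the 6 of highest mean, the 10 largest rises and 10 largest falls, the paralog pairs, and members outside the ribosome or below the filter. In each related list the candidates were the 2 largest differences and the 2 highest means. The alternatives (22) were another pseudocount, other filters, 4 other scalings, no trend or robust moderation, array weights, the tumour number as a block, chromosome medians removed, pseudogene rows added and each library left out. Some members and related genes are not reported here.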

Additional observations from a re-analysis of the deposited data

Results flagged for a closer look

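In 158 groups of 5 tumours, over the named genes and the paralog ratios, 5 held a tumour that stood apart from the other 4 by Dixon's criterion (gap over range above 0.71), and chance flags about 1 in 20 groups. Rpl41 had 427.6 FPKM in inflamed tumour 3, below the other inflamed tumours. Rps18 had 94.0 FPKM in desert tumour 3, below the other desert tumours. Npm1 had 129.5 FPKM in the same desert tumour 3, also below the others. Rpl7 had 346.7 FPKM in desert tumour 4, above the other desert tumours. The log2 ratio of Rpl22l1 to Rpl22 was -1.31 in desert tumour 2, below the other desert tumours and above all inflamed tumours.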

How the results depend on the processing

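Beside 30 members higher and 14 lower as reported, rescaling to TPM gave 15 higher and 26 lower (22.5% and 41.7% of all tested genes). Quantile normalization gave 18 and 29 (27.5% and 36.7% of all tested genes), and removal of chromosome medians gave 9 lower (33.0% of all tested genes). The median log2 difference of the members was -0.17 under TPM and -0.12 under quantile normalization. Related genes came to 21 higher and 119 lower under TPM (59 and 78 as reported), and to 39 higher with chromosome medians removed. The share of summed FPKM differed by -0.64 percentage points, where the share of reads differed by 0.274. Quantile normalization gave the opposite sign for Rplp1 (-0.43), Rps3a1 (-0.54), Rplp0 (-0.10), Rpl4 (-0.15), Rpl10 (-0.34) and Rps4x (-0.51), and removal of chromosome medians for Rpl8 (0.053) and Rpl4 (-0.0012). The causes were not tested. With 1 tumour left out, members higher ran from 26 to 31 and lower from 10 to 16, related genes higher from 52 to 60 and lower from 68 to 77, the median difference from 0.09 to 0.16 and the difference in share from 0.157 to 0.397. The ratio differences ran from -2.16 to -1.67 (Rpl3l to Rpl3), -0.11 to 0.08 (Rpl7l1 to Rpl7), -1.21 to -1.03 (Rpl22l1 to Rpl22), -0.58 to -0.46 (Rpl36al to Rpl36a), 0.36 to 0.69 (Rps27l to Rps27) and 0.07 to 0.73 (Rps27rt to Rps27). The tumour number as a replicate block gave 30 higher and 14 lower, with 29 and 14 of the called genes kept. Tumours of the same number correlated between -0.07 and 0.08, and 1 of 5 correlated best with its own number. The labels state no pairing, and these correlations cannot decide whether tumours of the same number shared a batch, since a weak common effect could go unseen. With 5 tumours a group, an exact test cannot give a p below 0.00794.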
